A study of Mus musculus with 2 samples.

Results

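The Serinc family and the genes around Serinc3 were examined in RNA of mouse pro-B cells with and without the histone methyltransferase gene Setdb1. The 8 genes were the 5 paralogues Serinc1 to Serinc5 and, on chromosome 2 beside Serinc3, the antisense gene 0610039K10Rik and the protein-coding genes Pkig and Ttpal, out of 36980 gene symbols in the table. They were chosen by name and position, with earlier results of these 2 libraries known, so their differences are given as a description. The table listed 36 of their transcripts, and 7 of the 8 genes reached 1 RPKM (reads scaled to transcript length and to library size) in at least 1 library, the level at which a gene is called measured here. Serinc2 did not. The control group is labelled Setdb1 C/C and the other Setdb1 Δ/Δ, where Δ marks the deleted allele. Both were bone marrow pro-B cells (B cell precursors) with a bcl2 transgene, sorted by flow cytometry and grown for 4 days with interleukin 7 at 5 ng/µl. The labels do not state the age, the strain, how many animals gave cells, what drove the transgene and the deletion, or which exons were removed. There was 1 library per group. Differences between the groups could therefore not be checked against replicates, and p-values were not computed.

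SERINC proteins span the membrane many times. They were named for serine incorporation into phosphatidylserine and sphingolipids, and were later found to move lipids between the leaflets of a membrane. SERINC5 and, more weakly, SERINC3 enter the particles of retroviruses and lower their infectivity, and the glycosylated Gag protein of murine leukaemia virus counteracts them. PKIG, the product of Pkig, is an inhibitor of protein kinase A, and TTPAL is a relative of the α-tocopherol transfer protein. SETDB1 methylates lysine 9 of histone H3 and silences endogenous retroviruses.

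The libraries held about 170650000 reads (C/C) and 193260000 reads (Δ/Δ), as recovered from the deposited values. Setdb1 itself stood at 17.0 (C/C) and 12.6 RPKM (Δ/Δ), a ratio of 0.743 over a whole transcript, which does not show the deleted part by itself. Pro-B markers were present in both libraries. Of 10, 4 were lower and 0 higher in Δ/Δ, their summed level was 4373 (C/C) and 3147 RPKM (Δ/Δ), and the lowest ratio of Δ/Δ to C/C among them was 0.243, for Rag1. Many markers of other blood cells were higher in Δ/Δ. By the 2-fold rule defined below, 6.28% of all measured genes were higher and 6.66% lower. The summed level of 10 myeloid markers was 22.5 RPKM (C/C) and 228 RPKM (Δ/Δ), with 5 of 7 measured ones higher and Mpo and Elane listed at 0 in C/C. That of 6 dendritic markers was 1.55 and 13.3 RPKM, with 4 of 4 measured ones higher. That of 8 erythroid and platelet markers was 8.60 and 76.0 RPKM, with 6 of 6 measured ones higher. Klf1, under 1 RPKM, was lower at 0.214 and 0.098 RPKM. Of 8 T lineage markers (44.4 and 70.7 RPKM summed), 2 of 4 measured ones were higher. They were Thy1 (C/C 23.7, Δ/Δ 55.7 RPKM) and Cd4 (C/C 0.15, Δ/Δ 2.62 RPKM). The remaining measured ones had lower levels but no call, Lck (C/C 18.4, Δ/Δ 10.5 RPKM) and Zap70 (C/C 2.06, Δ/Δ 0.933 RPKM). Cd3e, listed at 0 in C/C, reached only 0.058 RPKM. The part of these cells in the members' values was not tested. Xist stood at 0.094 (C/C) and 23.7 RPKM (Δ/Δ), and the Y-linked genes Eif2s3y (22.3 RPKM) and Uty (6.24 RPKM) in C/C were listed at 0 in Δ/Δ, so genotype and sex cannot be told apart.

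Serinc3 was among the most abundant genes of the C/C library and was more than 10-fold lower in the Δ/Δ library. Its full-length coding transcript, Serinc3-201 (ENSMUST00000017851, GRCm38 chromosome 2, 163623272 to 163645131, minus strand, 10 exons), measured 671 (C/C) and 58.5 RPKM (Δ/Δ). From 421784 and 41628 reads this was 11.47-fold lower, with a 95% interval for counting error of 11.3 to 11.6. The short non-coding transcript Serinc3-202, which shares 3 of its 4 exons wholly or in part with it, measured 721 (C/C) and 62.1 RPKM (Δ/Δ), 11.6-fold lower. The intervals of the short and the full-length form overlap. Serinc3 ranked 136 by level among 12556 measured genes in C/C and 1364 in Δ/Δ. By the difference of RPKM, Δ/Δ minus C/C, it ranked 21 among the genes with the most negative values, at -659 RPKM. In bulk RNA, fewer cells that make a transcript and less of it per cell cannot be told apart.

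Differences were called with a rule of size, in which a gene is lower or higher in Δ/Δ when log2 of the ratio Δ/Δ to C/C, with 0.5 RPKM added to each, is at most -1 or at least 1. The transcript with the highest mean RPKM stood for its gene. By this rule 4 of the 7 measured members were lower (Serinc3 at -3.53, 0610039K10Rik at -3.79, Pkig at -2.92 and Serinc5 at -1.25 on that log2 scale) and 0 were higher. Among all 12556 measured genes 6.66% were lower and 6.28% were higher. The members were chosen with this contrast known, and nothing is read from the difference between these shares. With a 4-fold rule 3 members were lower and 0 higher, beside 1.86% and 1.75% of all measured genes, and with the first rule 12.9% of all genes were called in either direction. Over all measured genes the median of these log2 values was -0.09.

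**Figure D1:**
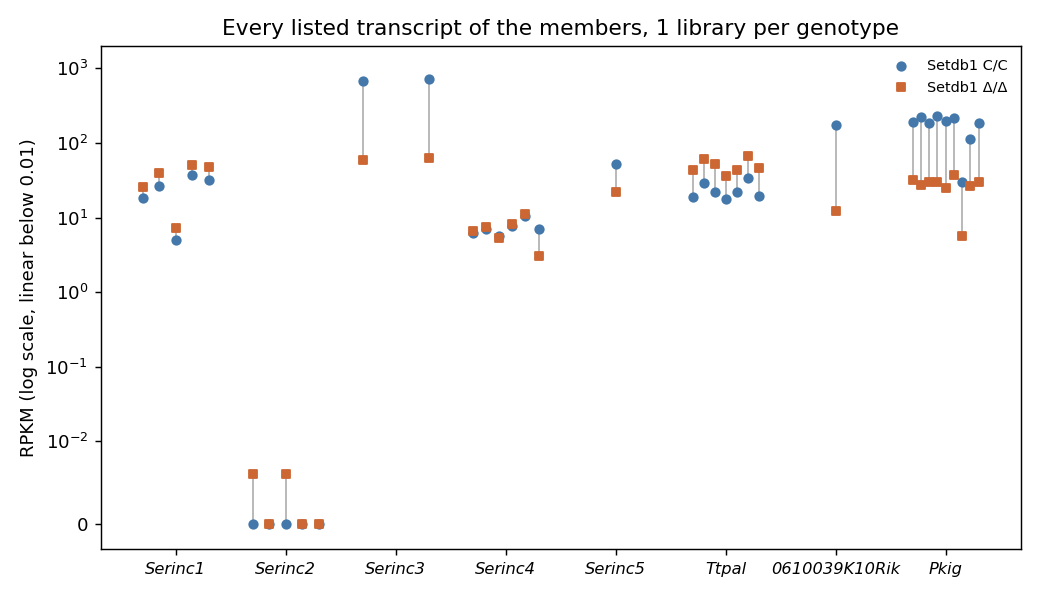
RPKM (log axis, linear below 0.01) of each listed transcript of the 8 genes, with a circle for the C/C library, a square for the Δ/Δ library and a line joining the 2 values of a transcript. All transcripts of Serinc3, 0610039K10Rik, Pkig and Serinc5 lie lower in Δ/Δ, those of Ttpal and Serinc1 lie higher, and Serinc2 is at or near 0 in both.

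The antisense gene 0610039K10Rik starts inside Serinc3 and runs out past its start on the other strand. Its listed transcript (ENSMUST00000076667, chromosome 2, 163644850 to 163645800, plus strand, 1 exon of 951 bases) measured 173 (C/C) and 12.0 RPKM (Δ/Δ). It was 14.4-fold lower (interval 13.5 to 15.3). Of its bases, 134 are also the first exon of Serinc3-201. The named kit (TruSeq RNA) keeps no strand information in its unstranded form, and the strand setting was not given. Reads there may therefore belong to either RNA. If Serinc3 were covered evenly, its reads on the shared bases would make up 54.6% of the antisense gene's reads in C/C and 68.4% in Δ/Δ. Spread over the other 817 bases, the reads beyond that share equal 91.4 (C/C) and 4.43 RPKM (Δ/Δ), 20.6-fold lower. No interval is given for this value, because the reads removed are assumed and were not counted. This rests on an assumed coverage. Deeper coverage of that exon than of the rest of Serinc3 could account for more of the reads, or all of them. The subtraction therefore does not measure the antisense RNA apart from Serinc3. How evenly Serinc3 was covered cannot be read from 1 value per transcript.

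The promoter windows of the genes that were lower are shown because Serinc3 and 0610039K10Rik start within 300 bases of each other, facing opposite ways, and Pkig starts next along the chromosome. They run from 250 bases before to 50 after a RefSeq start (RefSeq, GRCm38.p6), 5′ to 3′ on the gene's strand. Capitals mark matches, on either strand, to the letters of a GC box, a CCAAT box, the core of the cAMP response element, an ETS core or an E box, and EBF1 and STAT cores were searched too.
Serinc3 (chr2:163645094-163645393, minus strand): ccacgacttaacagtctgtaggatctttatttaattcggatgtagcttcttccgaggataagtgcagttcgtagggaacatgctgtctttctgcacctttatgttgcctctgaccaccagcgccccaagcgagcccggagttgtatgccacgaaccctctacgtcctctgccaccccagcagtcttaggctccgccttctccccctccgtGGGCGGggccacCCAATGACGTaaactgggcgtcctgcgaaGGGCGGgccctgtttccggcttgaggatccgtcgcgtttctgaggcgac
0610039K10Rik (chr2:163644600-163644899, plus strand): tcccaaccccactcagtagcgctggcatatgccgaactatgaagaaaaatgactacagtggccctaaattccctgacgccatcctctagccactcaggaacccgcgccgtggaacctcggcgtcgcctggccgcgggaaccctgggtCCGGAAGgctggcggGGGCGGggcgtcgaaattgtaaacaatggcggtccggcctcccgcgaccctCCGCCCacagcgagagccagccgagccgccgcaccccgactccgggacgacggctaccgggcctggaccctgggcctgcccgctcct
Pkig, first start (chr2:163658136-163658435, plus strand): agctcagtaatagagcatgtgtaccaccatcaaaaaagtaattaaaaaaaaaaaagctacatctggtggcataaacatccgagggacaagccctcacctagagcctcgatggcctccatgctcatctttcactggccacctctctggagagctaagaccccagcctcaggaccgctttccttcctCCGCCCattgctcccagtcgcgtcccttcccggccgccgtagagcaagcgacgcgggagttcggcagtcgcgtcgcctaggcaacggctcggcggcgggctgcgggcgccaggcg
Pkig, inner start (chr2:163693787-163694086, plus strand): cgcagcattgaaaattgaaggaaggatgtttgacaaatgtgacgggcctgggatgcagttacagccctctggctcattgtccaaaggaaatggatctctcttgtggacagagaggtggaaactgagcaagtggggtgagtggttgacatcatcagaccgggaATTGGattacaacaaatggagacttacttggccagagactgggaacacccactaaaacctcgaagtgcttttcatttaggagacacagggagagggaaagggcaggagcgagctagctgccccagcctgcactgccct
Serinc5 (chr13:92610888-92611187, plus strand): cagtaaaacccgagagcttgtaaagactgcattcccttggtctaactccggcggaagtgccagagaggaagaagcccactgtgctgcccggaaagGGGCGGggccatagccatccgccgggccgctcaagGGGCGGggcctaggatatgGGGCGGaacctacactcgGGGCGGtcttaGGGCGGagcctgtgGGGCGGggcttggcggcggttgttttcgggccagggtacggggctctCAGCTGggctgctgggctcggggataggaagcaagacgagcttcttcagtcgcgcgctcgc
The window of 0610039K10Rik lies wholly in the first intron of Serinc3. Counted over 32851 windows of the same length, 35.7% hold the GC box searched for here, spelled GGGCGG, and 37.4% hold a CCAAT box. The cAMP response element core, whose letters are TGACGT, is held by 7.5% of them, and the ETS core CCGGAAG by 8.9%. The E box was taken as CAGCTG, which 16.3% of the windows hold. The core of EBF1 (TCCC, then any 2 bases, then GGGA) is in 0.9% of windows and that of STAT factors (TTC, then any 3 bases, then GAA) in 8.3%, and neither matched in the 5 windows shown. The Serinc3 window holds 2 GC boxes, and next to its start a CCAAT box and a cAMP response element core that share 1 base. The 0610039K10Rik window holds 2 GC boxes and 1 ETS core. The first Pkig start has 1 GC box, the inner start 1 CCAAT box, and the Serinc5 window 6 GC boxes and 1 E box. In CG dinucleotides the windows differ, with 21 for Serinc3, 31 for 0610039K10Rik, 23 for the first and 5 for the inner start of Pkig and 24 for Serinc5, against a median of 7 over all windows. A further Pkig window, which overlaps the first (chr2:163658208-163658507), is not printed. It holds 35 CG dinucleotides, the most of the 10 member windows, and 1 GC box. These are matches of letters, not measured binding. RefSeq windows were matched for 6 of the 8 genes, without Serinc1 and Ttpal.

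Pkig, which starts 12584 bases beyond the end of the antisense gene and is read in the same direction, was lower in Δ/Δ in each listed form. The transcript that stood for it, Pkig-204 (ENSMUST00000126182, chromosome 2, 163658477 to 163725791, plus strand), measured 227 (C/C) and 29.7 RPKM (Δ/Δ), 7.65-fold lower (interval 7.32 to 8.01). All 9 listed Pkig transcripts were lower by the size rule, from 4.27-fold for Pkig-208 to 8.10-fold for Pkig-202. They share exons and therefore reads, so they are not separate measurements. Pkig-201, from the first start, and Pkig-203, from the inner start, differ in their first exon. Pkig-201 measured 194 (C/C) and 32.1 RPKM (Δ/Δ), and Pkig-203 measured 183 and 29.8 RPKM, ratios of 0.166 and 0.162. The retained-intron form Pkig-207, at 29.9 (C/C) and 5.60 RPKM (Δ/Δ), had a ratio of 0.188. Its counting interval of 0.177 to 0.198 does not reach that of Pkig-204 (0.125 to 0.137). Neither does that of the coding form Pkig-208 (0.219 to 0.250), and the interval of the coding form Pkig-206 (0.161 to 0.181) overlaps that of Pkig-207. The gap to Pkig-204 is therefore not particular to the retained-intron form. Gm16316, an antisense gene within Pkig that stayed under 1 RPKM, was listed at 0.359 (C/C) and 0.067 RPKM (Δ/Δ).

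**Figure D2:**
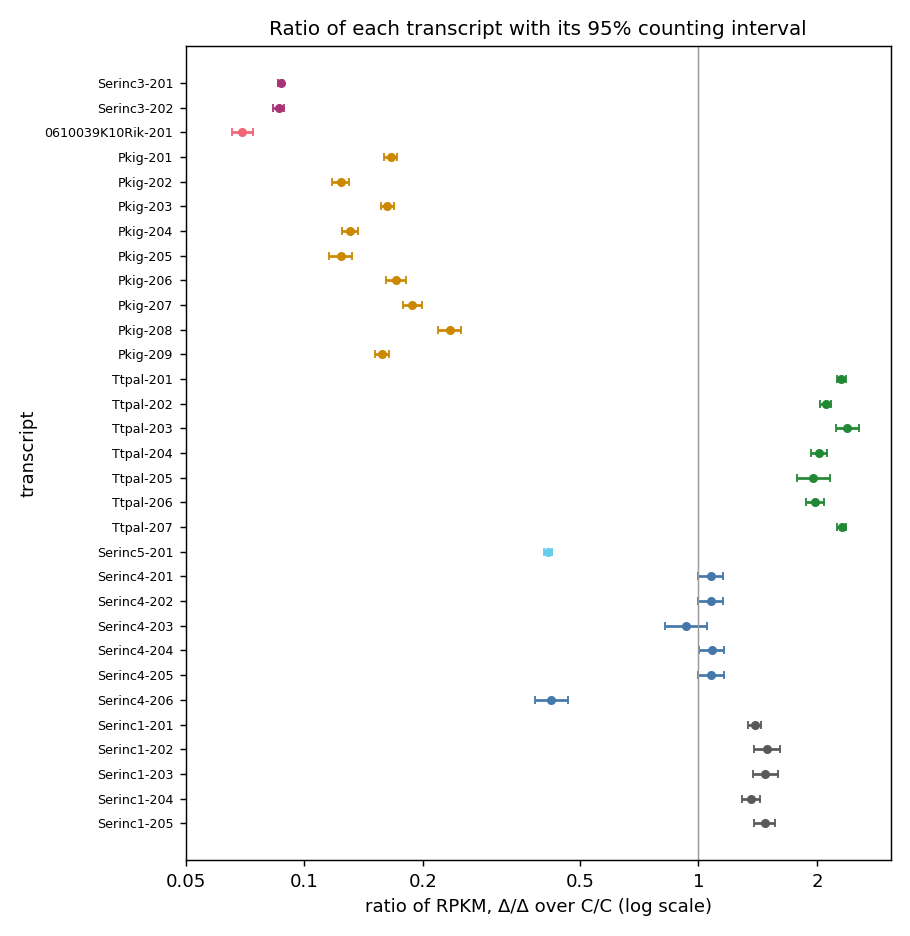
Ratio of RPKM, Δ/Δ over C/C (log axis), of each listed member transcript with reads in both libraries; bars are 95% counting intervals, which cover counting error only. The 2 Serinc3 transcripts lie at 0.087 and 0.086, the 9 Pkig transcripts between 0.124 and 0.234, the 7 Ttpal transcripts between 1.96 and 2.39, and Serinc4-206 at 0.424 stands away from the other Serinc4 transcripts.

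The genes on either side of these 3 had higher levels in Δ/Δ. Ttpal, whose end lies 4258 bases from the end of Serinc3, measured 34.3 (C/C) and 67.7 RPKM (Δ/Δ) by Ttpal-206 (ENSMUST00000156839, chromosome 2, 163602563 to 163611897, plus strand), a ratio of 1.98 (interval 1.88 to 2.08). Its log2 value of 0.97 was just short of the size rule. The full-length coding transcript Ttpal-207 passed it, at 19.7 (C/C) and 45.5 RPKM (Δ/Δ), a log2 value of 1.19. Ttpal-207 has 2523 bases that Ttpal-202 lacks, 2512 of them in 1 run at its 3′ end (163616501 to 163619012). These measured 12.0 (C/C) and 32.6 RPKM (Δ/Δ), a ratio of 2.71 (interval 2.59 to 2.83) against 2.10 (interval 2.03 to 2.17) for Ttpal-202 itself. The 2 intervals do not overlap. The first rests on subtracted reads. It holds only if reads on shared bases were counted in full for each transcript, and how they were counted was not given. Ttpal-203, a retained-intron form that ends before this run (163611520 to 163615426), had a ratio of 2.39 (interval 2.23 to 2.56). Ttpal-204 (2.02), Ttpal-205 (1.96) and Ttpal-206 (1.98) also end before the run. Their ratios were below that of Ttpal-202, with intervals that overlap its own. Outside the 3′ end, a ratio clearly above that of Ttpal-202 was thus seen in Ttpal-203 alone of the forms that end before the run. Ada, the adenosine deaminase gene that lies 425 bases beyond the end of Pkig and is read towards it, measured 19.5 (C/C) and 44.9 RPKM (Δ/Δ). Its ratio was 2.31 (interval 2.21 to 2.41), and its log2 value of 1.19 passed the rule.

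Further out no measured gene passed the size rule. Within 500 kb of Serinc3 the annotation holds 27 genes, of which 26 were in the table and 10 were measured. Of these 10, 3 were lower (Serinc3, 0610039K10Rik and Pkig, over a span of 102.9 kb), 1 was higher (Ada) and 6 had no call. Among all measured genes 6.66% were lower and 6.28% higher. The window is centred on a gene chosen with this contrast known, and nothing is read from the count. On the Ttpal side, Oser1, an oxidative stress-responsive gene, measured 50.03 (C/C) and 34.5 RPKM (Δ/Δ), and the lipid droplet gene Fitm2 measured 1.86 and 1.80 RPKM. On the Ada side the 14-3-3 gene Ywhab measured 10.5 and 15.5 RPKM, the mitochondrial import gene Tomm34 37.0 and 36.6 RPKM, and the kinase gene Stk4 159 and 143 RPKM. The 16 other genes in the table, among them Hnf4a and Tox2, reached at most 0.359 RPKM in either library.

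**Figure D3:**
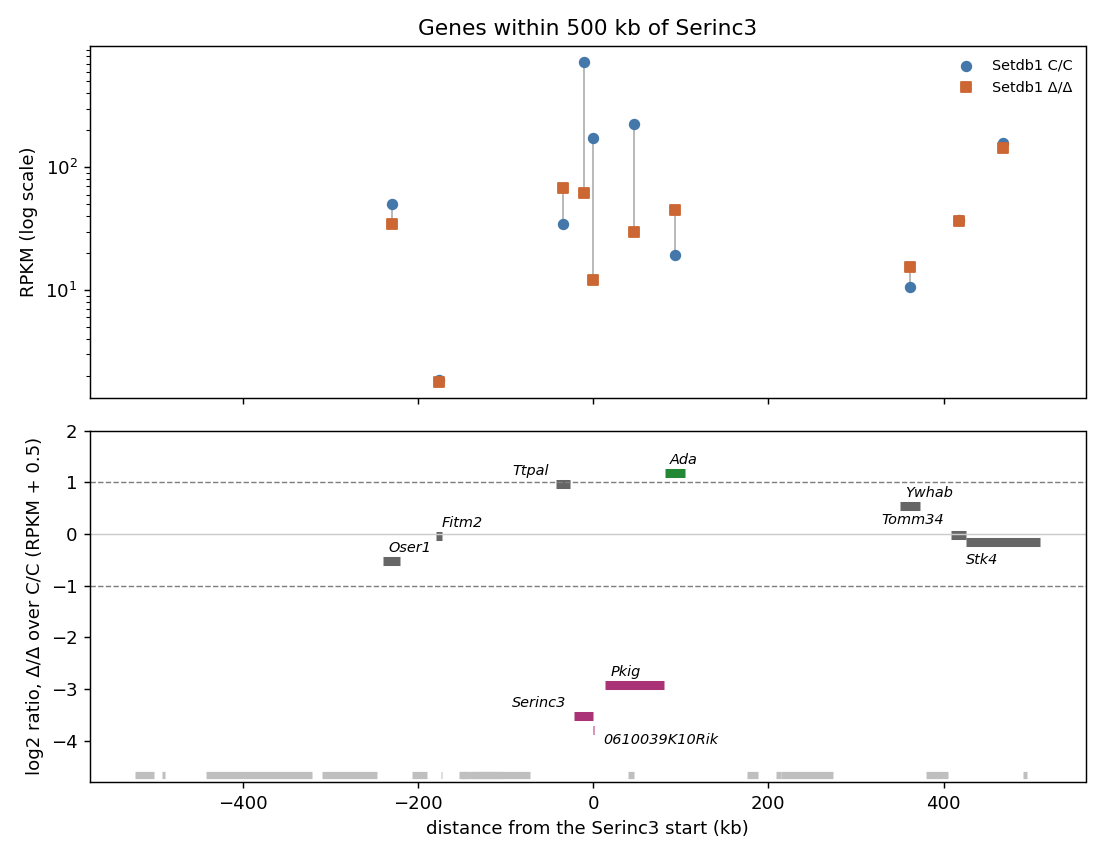
Genes within 500 kb of Serinc3 by distance from its start in kb, positive towards higher coordinates. The upper panel gives RPKM (log axis) of the 10 measured genes in C/C (circles) and Δ/Δ (squares); the lower panel gives their log2 ratios as bars over each gene's span, purple for lower, green for higher and dark grey for no call, with dashed lines at the size rule and pale grey bars at the foot for genes under 1 RPKM or not in the table. Serinc3, 0610039K10Rik and Pkig lie between -3.79 and -2.92, with Ttpal at 0.97 and Ada at 1.19 beside them.

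Within the family, Serinc5 was also lower by the size rule. Serinc5-201 (ENSMUST00000049488, chromosome 13, 92611091 to 92711947, plus strand, 12 exons) measured 52.5 (C/C) and 21.8 RPKM (Δ/Δ), 2.41-fold lower (interval 2.35 to 2.46). Per length, Serinc5 was below Serinc3 in both libraries. The intervals of their fold differences do not overlap, with a smaller difference for Serinc5.

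Serinc1 did not pass the rule, and stood somewhat higher in Δ/Δ. Serinc1-204 (chromosome 10, 57523035 to 57532428, minus strand) measured 36.7 (C/C) and 49.9 RPKM (Δ/Δ), a ratio of 1.36 (interval 1.29 to 1.44). The full-length Serinc1-201 measured 18.3 and 25.4 RPKM, and all 5 transcripts had ratios between 1.36 and 1.49. None of these 5 intervals reaches a ratio of 1, so the difference exceeds counting error and is smaller than the rule asks.

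With the strand setting not given, Serinc4 cannot be separated from its neighbours in these data. Its transcript Serinc4-205 measured 10.4 (C/C) and 11.2 RPKM (Δ/Δ), and 4 of the other 5 had ratios from 0.929 to 1.08. Its log2 value was 0.10, and -0.07 with the mean of all its transcripts. All exonic bases of these 5 transcripts also belong to exons of Serf2 or Hypk, which lie on the opposite strand and measured 221 and 247 RPKM (Serf2) and 73.3 and 75.5 RPKM (Hypk). The bases that Serinc4-201 has beyond Serinc4-205 held 112 reads in C/C and 127 in Δ/Δ, which equals 0.603 and 0.606 RPKM. These bases too are covered by exons of the neighbours. The sixth transcript, Serinc4-206, was lower, at 7.11 (C/C) and 3.01 RPKM (Δ/Δ). It shares 64.6% of its bases with Ell3, an elongation factor gene that was also lower (11.3 and 3.57 RPKM).

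Serinc2 was near the limit of detection. Its 5 transcripts were listed at 0 in C/C, and 2 of them held 2 reads each in Δ/Δ, 0.006 RPKM. This is below the 3 reads taken as the floor, which for Serinc2-201 equal 0.00936 (C/C) and 0.00827 RPKM (Δ/Δ). No ratio is given for it.

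The make-up of the family by summed level depends on the transcript that stands for each gene. With the transcript of highest mean level, which for Serinc3 and Serinc1 is a short form, the summed level was 821 (C/C) and 145 RPKM (Δ/Δ). Serinc3 made up 87.9% of it in C/C and 42.8% in Δ/Δ, Serinc1 4.47% and 34.4%, Serinc5 6.40% and 15.0%, and Serinc4, with the reservation above, 1.27% and 7.72%. With the longest transcript of each gene, Serinc3 made up 89.7% in C/C and 52.0% in Δ/Δ, Serinc1 2.44% and 22.6%, Serinc5 7.02% and 19.4%, and Serinc4 0.832% and 5.94%. With either choice the share of Serinc3 was lower in Δ/Δ, and the shares of Serinc1, Serinc5 and Serinc4 were higher. Shares of a sum are linked, so a lower share of Serinc3 by itself raises the others. The level of Serinc5 was lower in Δ/Δ although its share was higher. In C/C the order of levels by either choice was Serinc3, Serinc5, Serinc1, Serinc4 and Serinc2. In Δ/Δ Serinc1 stood above Serinc5, and the order was otherwise the same.

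The genes of the pathways that SERINC proteins are linked to were taken from lists chosen with earlier results known. Here too the transcript of highest mean level stood for each gene. For some genes it was a short or non-coding form, such as Slc1a5-205 (416 bases, non-coding) and Vmp1-207 (393 bases, non-coding). Such levels, and the order of abundance, need not be those of the coding RNA. Each count below stands beside the 6.28% higher and 6.66% lower, together 12.9%, among all measured genes, and nothing particular to a list is read from it. Of 26 measured genes for the synthesis and transport of serine, phosphatidylserine and sphingolipids, 1 was higher, 2 were lower and 23 had no call, with a median log2 ratio of 0.02. The most abundant were Slc1a5, a neutral amino acid transporter gene with 545 (C/C) and 292 RPKM (Δ/Δ), and the serine synthesis and use genes Phgdh (380 and 482 RPKM), Shmt2 (191 and 169 RPKM) and Psat1 (145 and 119 RPKM), none of which passed the rule. The serine transporter gene Slc1a4 was higher, at 7.90 (C/C) and 29.6 RPKM (Δ/Δ). Ormdl3, an inhibitor of serine palmitoyltransferase, was lower at 30.9 and 11.5 RPKM, as was the sphingomyelin synthase gene Sgms1 at 13.4 and 6.37 RPKM, close to the limit with a log2 value of -1.02. The phosphatidylserine synthase gene Ptdss1 measured 21.8 (C/C) and 21.5 RPKM (Δ/Δ).

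Of 9 measured genes for other lipid scramblases 0 were called, with a median of -0.26. Among all measured genes 12.9% were called, so few calls are to be had in a list of this size. The 4 most abundant were Plscr3 (26.6 and 22.3 RPKM in C/C and Δ/Δ), Vmp1 (19.0 and 28.5 RPKM), Tmem41b (13.2 and 20.5 RPKM) and Ano6 (12.9 and 9.70 RPKM). The levels of the 9 scramblase genes differed by less than 2-fold.

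Several other genes whose products restrict retroviruses at the membrane were higher in Δ/Δ. Of 9 measured ones 5 were higher, 1 was lower and 3 had no call, with a median of 1.12, where 6.28% of all measured genes were higher and 6.66% lower. The interferon-induced membrane protein gene Ifitm3 measured 10.5 (C/C) and 44.7 RPKM (Δ/Δ), Ifitm1 28.5 and 105 RPKM, and Bst2, which tethers budding particles, 43.8 and 95.7 RPKM. The guanylate-binding protein genes Gbp2 (9.68 and 28.8 RPKM) and Gbp5 (2.41 and 6.32 RPKM) were higher too. The ubiquitin ligase gene March1 was lower at 3.38 and 0.52 RPKM, and Ifitm2, the most abundant of the list, had no call at 97.9 and 122 RPKM. Most of these genes are known to respond to interferon, and myeloid and dendritic markers were higher in the same library (above). The part of those cells was not tested.

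Among relatives of the neighbours, 1 of 7 measured genes for protein kinase A and its other inhibitors was lower and 0 were higher, with a median of -0.20. This is near the 12.9% called among all genes. The lower one was the inhibitor gene Pkib, at 7.81 (C/C) and 2.47 RPKM (Δ/Δ). The remaining inhibitor gene, Pkia, stood at 0.013 and 0.014 RPKM. The kinase subunits stayed within the rule, with Prkacb at 34.3 and 31.2 RPKM, Prkar1a at 32.3 and 32.5 RPKM, Prkaca at 22.2 and 19.3 RPKM and Prkar2b at 7.87 and 7.53 RPKM. Of 10 lipid transfer genes related to Ttpal 2 were measured and 0 passed the rule. These 2 were Sec14l1 (7.18 and 5.56 RPKM) and Mospd2 (3.64 and 7.12 RPKM). Ttpa, which encodes the α-tocopherol transfer protein, stood at 0.363 and 0.546 RPKM.

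**Figure D4:**
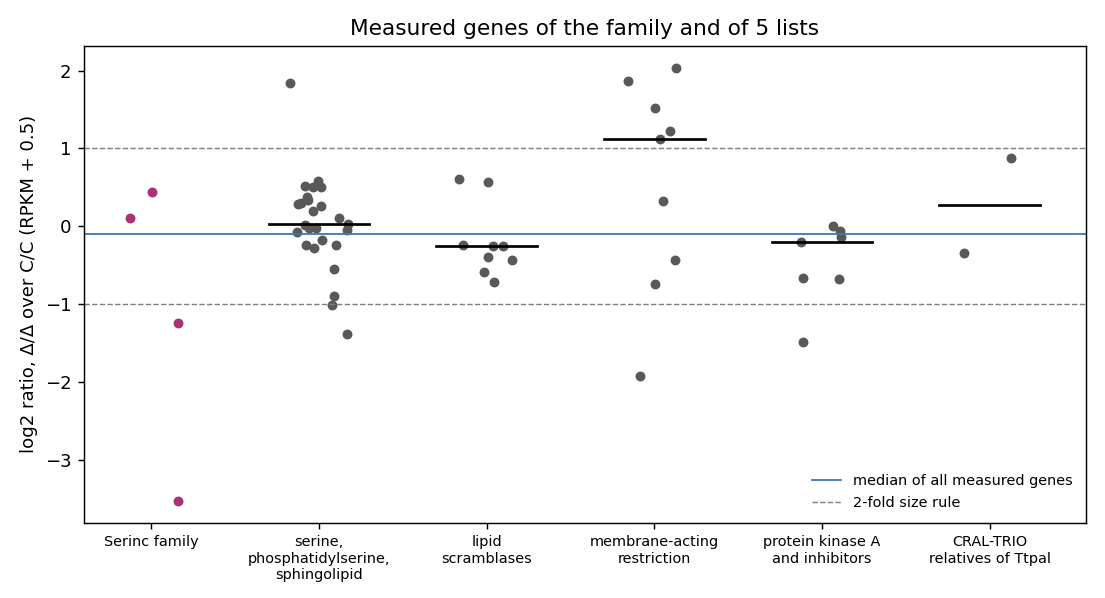
Log2 ratio, Δ/Δ over C/C with 0.5 RPKM added, of each measured gene of the Serinc family and of the 5 gene lists; black lines are list medians, the blue line is the median of all measured genes (-0.09) and dashed lines mark the size rule. Serinc3 at -3.53 lies below all genes of the 5 lists, and 5 of 9 membrane-acting restriction genes lie above the upper dashed line.

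Among 10750 measured protein-coding genes, Ly6d came closest to Serinc3 in its pair of levels, at 643 (C/C) and 58.6 RPKM (Δ/Δ). The distance between the 2 genes was 0.185 on the log2 scale over the 2 libraries. The next were Cd79a (548 and 153 RPKM, distance 1.36) and Cxcr4 (315 and 110 RPKM, distance 1.45). With 2 libraries such likeness rests on 2 values per gene.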

How the data were processed

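Ribosome-depleted total RNA was made into TruSeq libraries and read as 101 bp paired ends, per the labels' protocols. The authors deposited 1 RPKM value per Ensembl transcript and library, rounded to 3 decimals, for 93615 transcripts. The submitters' processing notes name TopHat2 2.0.9, bedtools and the builds mm9 and mm10. The build of this table, its annotation, the strand setting and the counting of shared reads were not given in the sources used here. Of the transcripts, 89571 (95.7%) matched GENCODE M21 (GRCm38), which gave symbols, exons and coordinates.

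Depth was recovered as the number of reads that makes RPKM times exonic length whole. For short transcripts (100 to 800 bases) with low values, the share within 0.1 of a whole read was 95.9% (C/C) and 95.2% (Δ/Δ). Transcripts with 2 reads outnumbered those with 1 (641 and 588 for C/C, 727 and 522 for Δ/Δ). Hence 2 reads were taken as 1 fragment when the exact 95% intervals were computed from Poisson rates. Intervals and floors cover counting error only. Reads of bases in which transcripts differ were obtained by subtraction, which assumes that shared reads were counted in full for each transcript.

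With 1 library per group, the size rule on log2 ratios (0.5 RPKM added, at least 1 RPKM in a library) took the place of a test. The depth search, the intervals and the rule were tested on simulated data. The column headed Wt was taken for C/C and that headed Del for Δ/Δ. Members and lists were chosen with earlier results of these data known, and the motifs after the values were seen. Genes named are all members, measured genes within 500 kb of Serinc3, the 4 most abundant of each list, up to 4 per list past the rule with the largest log2 ratio, and the 3 protein-coding genes nearest to Serinc3 in both levels. Ptdss1, Gbp5, Pkia, Ttpa, Gm16316, Hnf4a, Tox2, Prkar1b, Prkar2a and the genes that overlap Serinc4 were added after their values were seen. Python 3.11.15, pandas 2.3.3, SciPy 1.17.1 and Matplotlib 3.10.9 were used.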

Additional observations from a re-analysis of the deposited data

How the results depend on the processing

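Serinc3 and 0610039K10Rik stayed lower under each of 7 other settings (pseudocounts, scalings and choices of transcript). For 0610039K10Rik, which has 1 listed transcript, the choices of transcript could not change the value. Centring on the median gave log2 ratios of -3.43 for Serinc3 and -3.70 for 0610039K10Rik, and a common RPKM sum without the 20 most abundant transcripts gave -3.41 and -3.68. An alternative chosen after seeing the data, which removed an even-coverage share of Serinc3 reads from the shared bases, gave -4.22 for 0610039K10Rik. Ttpal was short of the size rule at 0.97 and passed it when centred (1.07), with the common sum (1.09), by its longest transcript (1.19) and by the mean of its transcripts (1.08), which made 5 called members, 1 of them higher, in place of 4. Serinc4 turned from 0.10 to -0.07 with the mean of its transcripts. Pkig stood at -2.31 by its longest transcript, a retained-intron form. A 4-fold rule left 3 members lower, 454 genes called in all in place of 1624, 1 membrane-acting restriction gene in place of 6, and 0 genes of serine and sphingolipid synthesis in place of 3. A filter of 5 RPKM left 962 genes. Of the protein kinase A genes, 1 was called, 2 with a pseudocount of 0.1 RPKM or none, and 0 by longest transcripts or the 4-fold rule. With 1 library per group no replicate could be left out. No paired analysis was possible because each group has 1 library and the labels carry no replicate numbers. Depth limits Serinc2, the Serinc4 bases outside Serinc4-205, and low genes of the lists such as Prkar1b (66 and 33 reads, ratio interval 0.22 to 0.80). Shared bases, with the strand setting not given, limit Serinc4 and 0610039K10Rik.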

Other observations

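Besides Serinc3, 0610039K10Rik and Pkig, other neighbouring genes were at least 4-fold lower in Δ/Δ (log2 ratio with 0.5 RPKM added at most -2). Among them were the class II histocompatibility genes H2-Ab1, H2-Aa and H2-Eb1 (167 to 37.2, 148 to 26.2 and 96.0 to 14.9 RPKM from C/C to Δ/Δ), the pair Lynx1 and Ly6d (35.8 to 3.53 and 643 to 58.6 RPKM) and the pair Grb7 and Ikzf3 (47.3 to 8.87 and 63.7 to 13.5 RPKM). Immunoglobulin and T cell receptor gene segments were left out. Of the 122 other genes this low, 30 lay in 18 pairs at most 50 kb apart, Serinc3 and its neighbours included. The Y-linked pair Uty and Ddx3y is among these, and the libraries differ in sex-linked genes. Some pairs overlap, such as Adam19 and Gm16033, and whether they share reads was not examined. The genes named here were chosen after their values were seen. Whether lower genes lie together more often than gene density gives was not tested. Ly6d is also the gene whose levels came closest to those of Serinc3.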
